A study of Mus musculus with 24 samples.

Results

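The neurotrophic factor receptors examined here were 9 genes, selected by name from the 22889 entries of an RPKM table: *Ret*, the signaling receptor of the GDNF (glial cell line-derived neurotrophic factor) family, its ligand-binding co-receptors *Gfra1*, *Gfra2*, *Gfra3* and *Gfra4*, the neurotrophin receptors *Ntrk2* (TrkB), *Ntrk3* (TrkC) and *Ngfr* (p75), and *Cntfr*, the binding subunit of the receptor for CNTF (ciliary neurotrophic factor). They were measured by bulk RNA-seq in 24 samples, in 4 groups of 6, from motor neuron cultures made from mouse embryonic stem cells (mESCs). Oculomotor neuron (OMN) cultures came from the Islet1-GFP/NesEPhox2a line, in which the nestin enhancer, active in neural progenitors, drives a *Phox2a* transgene, and received 250 nM SAG (a smoothened agonist) with 100 ng/ml FGF8 for 5 days. Spinal cord (SC) motor neuron cultures came from an Hb9-GFP line without that transgene and received 500 nM SAG with 100 nM retinoic acid for 5 days. Each culture was sorted by FACS into a GFP-positive (GFP+) and a GFP-negative (GFP-) fraction, so that line, reporter, transgene and patterning factors changed together between the cultures and their parts cannot be told apart. The comparisons ask how the receptor genes differed between the neurons of the cultures and between each neuron fraction and the other cells of its culture.

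GDNF family ligands bind a GPI-anchored GFRα protein, which then engages the tyrosine kinase RET; GFRα1 is the preferred partner of GDNF, GFRα2 of neurturin, GFRα3 of artemin and GFRα4 of persephin. TrkB binds BDNF and neurotrophin-4, TrkC binds neurotrophin-3, and p75 binds all neurotrophins with low affinity, while CNTFRα joins LIFR and gp130 to form the CNTF receptor. GDNF, BDNF, neurotrophin-3 and CNTF are classic survival factors of developing motor neurons, and p75 and RET are present on embryonic motor neurons as well as on sensory and autonomic neurons.

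The members lie on 9 chromosomes, with positions from the GRCm38 assembly and the GENCODE annotation. *Ret* is at chr6:118151745-118197718 (minus strand), *Gfra1* at chr19:58235604-58455909 (minus) and *Ngfr* at chr11:95568818-95587735 (minus). *Gfra2* is at chr14:70890120-70979838 (plus) and *Gfra4* at chr2:131039632-131043088 (minus). *Ntrk2* is at chr13:58806569-59133970 (plus), *Ntrk3* at chr7:78175959-78738012 (minus) and *Cntfr* at chr4:41657498-41697089 (minus). The libraries did not keep the strand, so reads from *Gfra1* and the antisense gene *Gm16277* cannot be told apart. The same holds for *Ntrk2*, which overlaps 4 annotated genes with 3 on the other strand, and for *Ntrk3*, which overlaps 4 with 2 on the other strand. *Gfra4* overlaps the gene of a microRNA on its own strand, and no other annotated gene overlapped *Ret*, *Gfra2*, *Gfra3*, *Ngfr* or *Cntfr*. The values per gene do not separate full-length from truncated receptors of *Ntrk2* and *Ntrk3*.

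Start-site sequences are shown for *Gfra1* and *Ngfr*, which were both higher in the GFP+ fraction of the oculomotor cultures. They come from the RefSeq promoter windows on GRCm38.p6 (300 bases, matched for 5 of the 9 members), and only the bases directly upstream of the start that lie in no annotated exon are printed, 5′ to 3′ on the minus strand. These are chr19:58455399-58455460 for *Gfra1* (62 bases, 53.2% G or C) and chr11:95587736-95587948 for *Ngfr* (213 bases, 70.9% G or C). The *Gfra1* stretch lies between exons inside the GENCODE gene, since the RefSeq start falls within it, and the *Ngfr* stretch lies just outside its gene. Capitals mark E-boxes (CANNTG, bound by proneural bHLH factors as a class) and GC boxes (GGGCGG, bound by Sp factors), searched on both strands, which did not overlap each other.
Gfra1: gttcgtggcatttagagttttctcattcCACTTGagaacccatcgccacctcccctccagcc
Ngfr: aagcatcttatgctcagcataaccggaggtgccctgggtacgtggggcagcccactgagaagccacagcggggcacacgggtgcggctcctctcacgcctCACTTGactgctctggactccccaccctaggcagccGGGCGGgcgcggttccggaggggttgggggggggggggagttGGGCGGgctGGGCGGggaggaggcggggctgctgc
Over the full 300 bases, *Gfra1* held 3 E-boxes and no GC box, and *Ngfr* held 2 E-boxes and 4 GC boxes. At least 1 E-box was found in 72.3% of all 32851 windows and at least 1 GC box in 35.7%. The E-box in each printed stretch reads CACTTG, a form singled out after it was seen and present in 13.6% of windows. Neither window held the homeodomain core TAATTA (5.3% of windows) or the nuclear receptor core AGGTCA (16.3%). These matches are a description of letters and not of binding.

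RPKM are read counts divided by transcript length and by the reads of the library, so levels set side by side between genes depend on the lengths used. The lengths read from the RPKM steps were 30170 bases for *Ntrk3* and 13811 for *Ntrk2*, against 2782 for *Cntfr* and 3447 for *Ngfr*. Depth, read from the steps of the RPKM values, was 752566 to 7674719 reads per sample. It was 752566 to 4642889 in replicates 1 to 4 and 4822059 to 7674719 in replicates 5 and 6. *Isl1* was higher in GFP+ in 11 of the 12 GFP+/GFP- pairs, at 141 to 369 RPKM in OMN GFP+ and at most 1.87 RPKM in OMN GFP-. In spinal pair 4 the motor neuron markers were divided. *Mnx1* (Hb9, the reporter's own gene) was at 43.1 RPKM in the library labelled SC GFP+ 4 and at 69.4 RPKM in the library labelled SC GFP- 4, and *Isl1* (7.63 and 8.56 RPKM), *Slc18a3* (0.955 and 2.83 RPKM) and *Prph* (7.82 and 10.6 RPKM) were also higher in the latter. *Chat* (3.92 and 1.42 RPKM) and *Isl2* (1.4 and 0.322 RPKM) were higher in the former, and the pluripotency gene *Nanog* was at 156 and 185 RPKM. In the library labelled SC GFP- 2 the 10 highest genes held 76.26% of the summed RPKM, which lowers the RPKM of all other genes there. The spinal results for *Gfra1*, *Ret* and *Ngfr* are therefore also given without these libraries. Nothing in the labels says that replicates were separate cultures, so p-values measure the spread between these samples.

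The differences below are on the log2(RPKM + 1) scale, which understates the change of low genes, and a gene was called at a limma adjusted p under 0.05 over all genes tested. Between OMN GFP+ and OMN GFP- 3 of the 9 members were called, all higher in GFP+ (*Gfra1*, *Ngfr* and *Ret*), against 6.15% of all genes tested. Between OMN GFP+ and SC GFP+ 1 of 9 was called (*Gfra1*, higher in OMN), against 0.603% of all genes. Between SC GFP+ and SC GFP- 0 of 9 were called, against 1.23% of all genes. At an unadjusted p under 0.05 in limma there were 3 of 9 members, against 2315 of 22179 genes tested. Between OMN GFP- and SC GFP- 0 of 9 were called as well, against 0.96% of all genes. Here 1 of 9 members had an unadjusted p under 0.05 in limma, against 2500 of 22179 genes tested. In the interaction, which tests whether the GFP+ to GFP- difference was itself different between the cultures, 1 of 9 was called (*Gfra1*), against 0.32% of all genes. Of all genes tested, 1582 of 22179 had an unadjusted p under 0.05 in limma in the interaction. These counts were 4015 of 22179 between the OMN fractions and 1951 of 19240 between the GFP+ fractions. Without spinal pair 4 and without SC GFP- 2, 0 of 9 members were called between the SC fractions and between the GFP- fractions, as with all libraries. These fits did not pair the fractions of a replicate number. With the pairs as a block in limma, *Ntrk3* was also called between the OMN fractions (adjusted p = 0.0132), against 16.4% of all genes. *Gfra1* was then called between the SC fractions (adjusted p = 0.0404), against 2.93% of all genes. All 9 members passed the filter on low values in each fit. The median log2 difference of the members was 0.62 between the OMN fractions and 0.27 between the SC fractions, where the median of all genes was 0.0 each time. It was 0.08 between the GFP+ fractions and -0.37 between the GFP- fractions, where that of all genes was -0.04 each time.

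**Figure D1:**
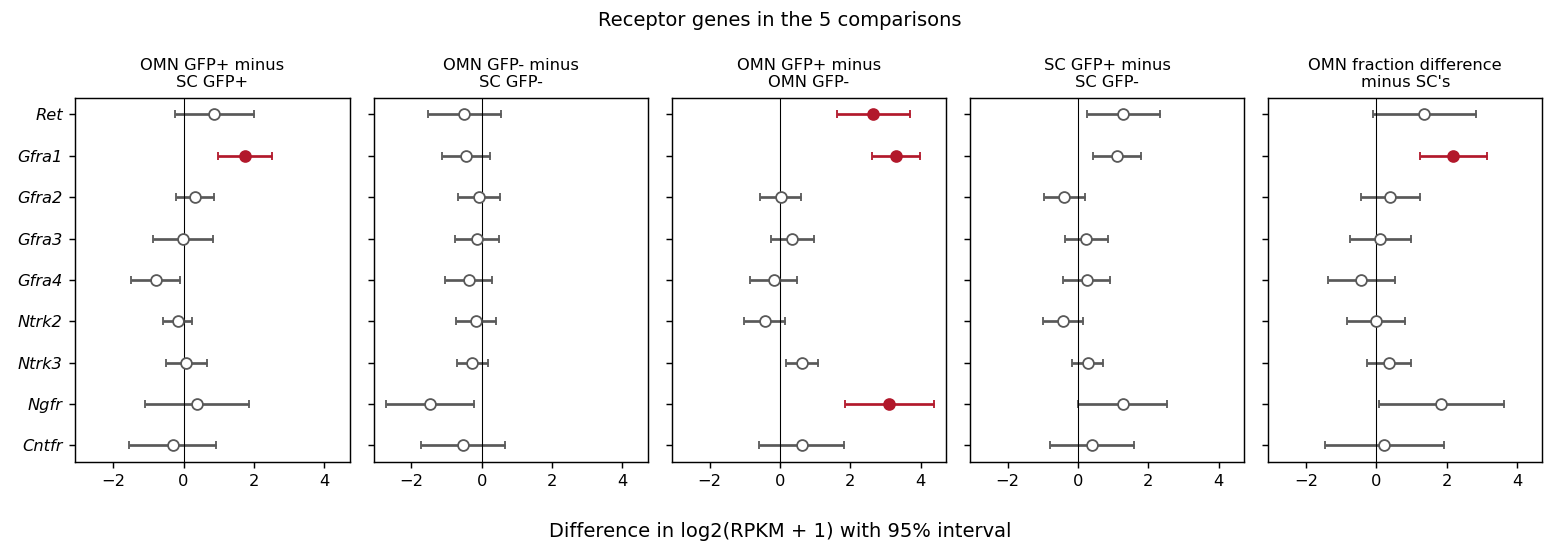
Difference in log2(RPKM + 1) of each receptor gene in the 5 comparisons, as the limma estimate (points) with its 95% interval (bars); filled red points were called at an adjusted p under 0.05. *Gfra1*, *Ngfr* and *Ret* lie at 3.29, 3.11 and 2.66 between the OMN fractions, and *Gfra1* is the filled point between the GFP+ fractions and in the interaction.

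*Gfra1*, the co-receptor for GDNF, showed the largest of these differences. In OMN GFP+ its level was 12.3, 18.3, 10.4, 7.75, 10.9 and 9.54 RPKM in replicates 1 to 6, and in OMN GFP- it was 0.0629, 1.11, 0, 0, 0.151 and 0.383 RPKM. Every OMN GFP+ sample was above every OMN GFP- sample, as in 6.52% of all genes tested for this comparison, in either direction. The means were 11.5 ± 3.66 and 0.285 ± 0.43 RPKM (SD, n = 6 each), and the log2 difference was 3.29 (SE 0.33, limma adjusted p = 6.18e-07). In a bulk sample, more cells that express a gene and more RNA per cell cannot be told apart. The call held under all 35 alternatives tried.

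In the spinal cultures *Gfra1* was at 2.8, 0.628, 5.17, 1.73, 2.42 and 5.19 RPKM in GFP+ and at 1.0, 0.108, 0.485, 0.773, 1.66 and 0.463 RPKM in GFP- replicates 1 to 6. GFP+ was the higher fraction in 6 of 6 pairs, but the groups overlapped through the low level of SC GFP+ 2; 0.469% of all genes had no overlap here. The log2 difference was 1.1 (SE 0.33, limma adjusted p = 0.114, 95% interval 0.43 to 1.78). With the pairs as a block the adjusted p was 0.0404, and without SC GFP+ 2 it was 0.0307. Without spinal pair 4 the difference was 1.2 with an adjusted p of 0.086, and without SC GFP- 2 it was 0.98 with an adjusted p of 0.212.

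Set against each other, the GFP+ fractions did not overlap for *Gfra1*, with the lowest OMN sample at 7.75 RPKM and the highest SC sample at 5.19 RPKM, which was so for 1.43% of all genes in this comparison. The log2 difference was 1.75 (SE 0.36, 95% interval 0.97 to 2.53), with a ratio of mean RPKM of 3.85. The summed markers of motor neurons, progenitors and pluripotent cells also differed between these fractions, as given below, and their part in this difference was not tested. Its limma adjusted p of 0.04996 lay at the threshold. The call was kept when SC GFP+ 3 or SC GFP+ 6 was left out and lost when any of the other 10 samples was, with adjusted p from 0.0309 to 0.144 over the 12 fits. It was lost without the library labelled SC GFP+ 4 (1.67, adjusted p = 0.0888). Replicates 1 to 4 alone gave 1.98 (adjusted p = 0.277), and the deeper replicates 5 and 6 gave 1.28 (adjusted p = 0.243). In a fit of all 24 samples the adjusted p was 0.00368. In the GFP- fractions *Gfra1* did not pass the test between cultures (-0.44, 95% interval -1.12 to 0.23, limma adjusted p = 0.637), and 1.27% of all genes showed no overlap there.

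The fraction difference of *Gfra1* was larger in the oculomotor cultures by 2.19 log2 (SE 0.46, 95% interval 1.24 to 3.15, interaction in limma adjusted p = 0.0315). With the pairs as a block the adjusted p was 0.00981 and without spinal pair 4 it was 0.039, and 0.0262 without SC GFP- 2. Leaving out single samples gave adjusted p from 0.0161 to 0.0713 with the call kept in 12 of 24 fits. It was lost without OMN GFP+ 1, 2 or 5, OMN GFP- 1, 3, 4, 5 or 6, SC GFP+ 4 or 5, or SC GFP- 1 or 5.

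**Figure D2:**
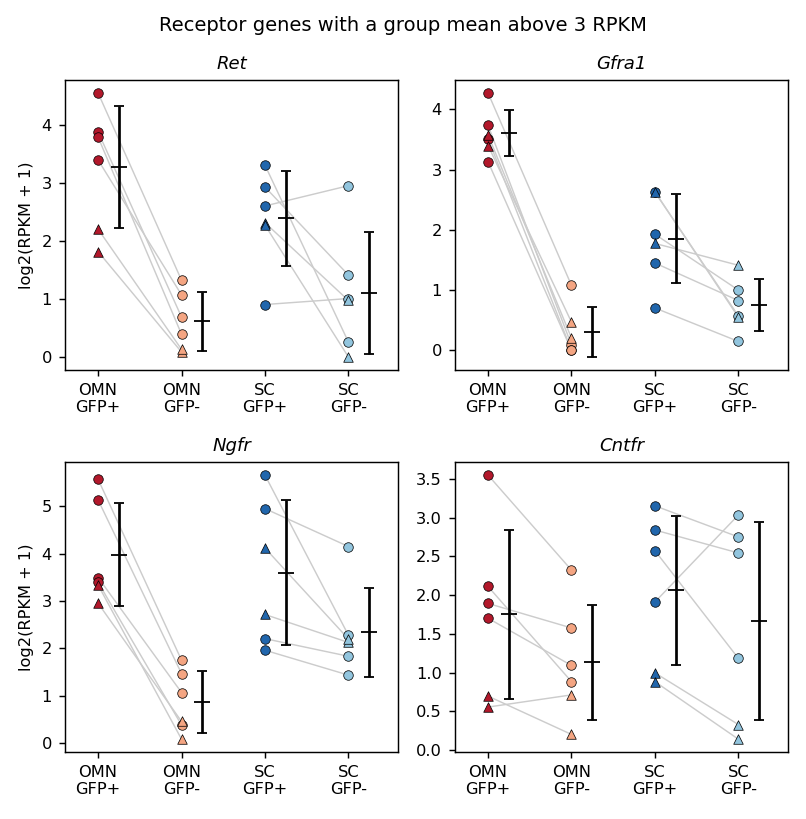
Levels of *Ret*, *Gfra1*, *Ngfr* and *Cntfr* as log2(RPKM + 1) in each sample (circles, replicates 1 to 4; triangles, the deeper replicates 5 and 6), with the mean and SD of 6 samples beside each group and gray lines joining the fractions of the same replicate number. The OMN fractions do not overlap for *Ret*, *Gfra1* and *Ngfr*, and *Cntfr* is lower in replicates 5 and 6 of every group.

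Among the 4 GFRα genes, *Gfra1* made up most of the summed RPKM in OMN GFP+, with shares of 74.6, 91.2, 94.8, 97.4, 95.5 and 97.3% in replicates 1 to 6. Its share was 31.7% to 100% (median 77.4%) in SC GFP+. In the GFP- fractions it was 0% to 76.0% in OMN and 5.6% to 68.3% in SC, over sums of at most 2.18 and 3.01 RPKM. In OMN GFP+ the sums themselves ran from 7.95 to 20.1 RPKM. The shares of OMN GFP+ 4 rest on 60 reads of *Gfra1*, the fewest in that group.

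**Figure D3:**
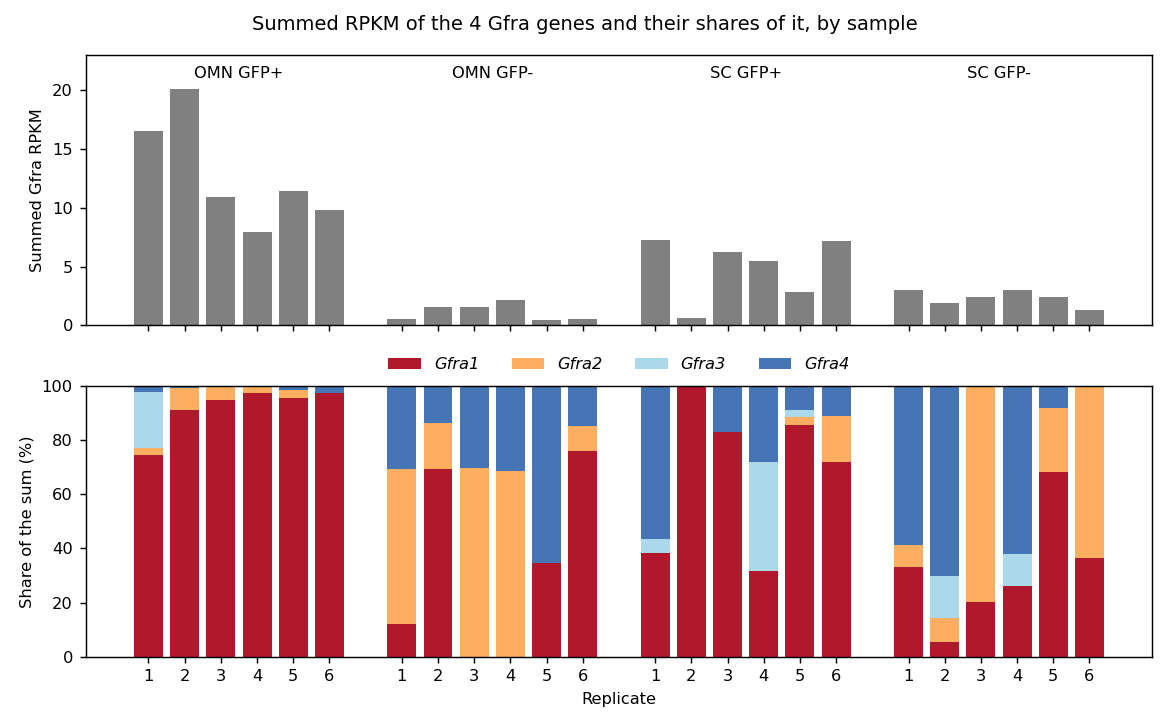
Summed RPKM of the 4 GFRα genes (upper bars) and the share of each in that sum in percent (lower bars), by replicate in the 4 groups. The sums are highest in OMN GFP+ (7.95 to 20.1 RPKM), where *Gfra1* takes 74.6% or more of each.

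*Gfra2* had its highest level at 1.65 RPKM in OMN GFP+, 1.5 RPKM in OMN GFP-, 1.24 RPKM in SC GFP+ and 1.92 RPKM in SC GFP-, and was listed at 0 in 1, 1, 4 and 1 of the 6 samples. It passed no test, and the 95% interval of its log2 difference between the GFP+ fractions was -0.2 to 0.87. *Gfra3* (GRCm38 chr18:34689898-34720387, minus strand) was listed at 0 in all 6 OMN GFP- samples, where 3 reads would have been 0.243 to 1.12 RPKM, and in 5 of 6 OMN GFP+ samples. The exceptions stood alone: OMN GFP+ 1 held 3.35 RPKM (31 reads) and the library labelled SC GFP+ 4 held 2.18 RPKM (17 reads), while no other sample had more than 3 reads. *Gfra4* reached 4.12, 1.54, 1.07 and 0.782 RPKM in SC GFP+ 1, 4, 3 and 6 and no more than 0.398 RPKM in OMN GFP+. Its log2 difference between the GFP+ fractions was -0.79 (95% interval -1.48 to -0.09, limma adjusted p = 0.42), so this did not pass the threshold, and its values rest on at most 25 reads.

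*Ret*, which carries the GDNF signal into the cell, was at 13.7, 12.8, 22.4, 9.51, 2.52 and 3.6 RPKM in OMN GFP+ and at 0.611, 0.312, 1.5, 1.1, 0.0613 and 0.0953 RPKM in OMN GFP-. The fractions did not overlap, although OMN GFP+ 5 and 6 stood well below OMN GFP+ 1 to 4. The log2 difference was 2.66 (SE 0.5, limma adjusted p = 0.00168), from means of 10.8 ± 7.33 and 0.612 ± 0.579 RPKM (SD, n = 6). Replicates 1 to 4 gave 3.04, and the deeper pair of replicates gave 1.9. The call was kept under all 35 alternatives, with adjusted p of at most 0.0473.

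In SC GFP+ *Ret* ran from 0.871 to 8.88 RPKM (median 4.52), the lowest in the library labelled SC GFP+ 4, and in SC GFP- from 0 to 6.73 RPKM (median 0.987). The groups overlapped, and the log2 difference of 1.29 (SE 0.5, limma adjusted p = 0.315, 95% interval 0.25 to 2.33) did not pass. It did not pass without spinal pair 4 (1.57, adjusted p = 0.139) or without SC GFP- 2 (1.35, adjusted p = 0.344) either. Between the GFP+ fractions *Ret* was at 10.8 ± 7.33 RPKM in OMN and 4.87 ± 2.72 RPKM in SC (SD, n = 6). That difference of 0.88 (95% interval -0.23 to 1.99, limma adjusted p = 0.606) had opposite signs in the replicate sets, with 1.47 in replicates 1 to 4 and -0.28 in replicates 5 and 6. The interaction was 1.37 (limma adjusted p = 0.736), so a culture difference in the fraction step of *Ret* was not shown.

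*Ngfr*, which encodes the low-affinity neurotrophin receptor p75, had the highest mean of the members in both GFP+ fractions. By median it was below *Ret* (11.2 RPKM) and *Gfra1* (10.6 RPKM) in OMN GFP+, at 9.89 RPKM. In OMN GFP+ it was at 10.3, 34.2, 9.53, 46.6, 9.13 and 6.76 RPKM, and in OMN GFP- at 1.1, 1.77, 0.304, 2.37, 0.0602 and 0.374 RPKM. These groups did not overlap, and the log2 difference was 3.11 (SE 0.61, limma adjusted p = 0.00219). Leaving out single samples gave adjusted p from 0.000949 to 0.00778, whereas with replicates 1 to 4 alone the adjusted p was 0.051 at a difference of 3.23.

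In SC GFP+ *Ngfr* was spread from 2.9 to 49.6 RPKM (30.0 and 49.6 RPKM in replicates 1 and 3, 16.4 RPKM in replicate 6 and 5.58 RPKM or less in the others). In SC GFP- it was at 1.71 to 3.86 RPKM apart from 16.8 RPKM in replicate 1. GFP+ was the higher fraction in 6 of 6 spinal pairs, and the log2 difference was 1.27 (SE 0.61, limma adjusted p = 0.473, with the pairs as a block 0.076). Without spinal pair 4 it was 1.41 (adjusted p = 0.326) and without SC GFP- 2 the adjusted p was 0.61. Between the GFP+ fractions the means were 19.4 ± 16.8 and 18.0 ± 18.6 RPKM (SD, n = 6) and the log2 difference was 0.38, with a 95% interval from -1.1 to 1.85 that leaves room for a change in either direction. Between the GFP- fractions *Ngfr* was lower in OMN by 1.47 log2 without passing the test (-1.47, 95% interval -2.72 to -0.22, limma adjusted p = 0.338).

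The Trk receptors among the members were low in RPKM, at the long lengths given above. By reads *Ntrk3* was not below *Cntfr* in OMN GFP+, with medians of 88.5 and 25.0 reads. *Ntrk2* stayed at or under 0.578 RPKM in OMN GFP+, 1.77 RPKM in OMN GFP-, 1.35 RPKM in SC GFP+ and 2.89 RPKM in SC GFP-, and its log2 difference was -0.43 between the OMN fractions and -0.42 between the SC fractions (95% intervals -1.01 to 0.15 and -1.0 to 0.15). *Ntrk3* was at 0.0785, 0.909, 1.32, 0.797, 0.394 and 0.638 RPKM in OMN GFP+ and at 0.0116 to 0.11 RPKM in OMN GFP-. Only OMN GFP+ 1 fell within the range of the OMN GFP- samples, and GFP+ was higher in 6 of 6 pairs. The log2 difference was 0.62 (SE 0.21, limma adjusted p = 0.09), and with the pairs as a block *Ntrk3* passed the test (adjusted p = 0.0132), so that 4 of the 9 members were called in that fit, against 16.4% of all genes tested in it. In SC GFP+ *Ntrk3* ran from 0.0339 to 2.11 RPKM (median 0.463) and in SC GFP- from 0.044 to 0.831 RPKM (median 0.171), and the groups overlapped.

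**Figure D4:**
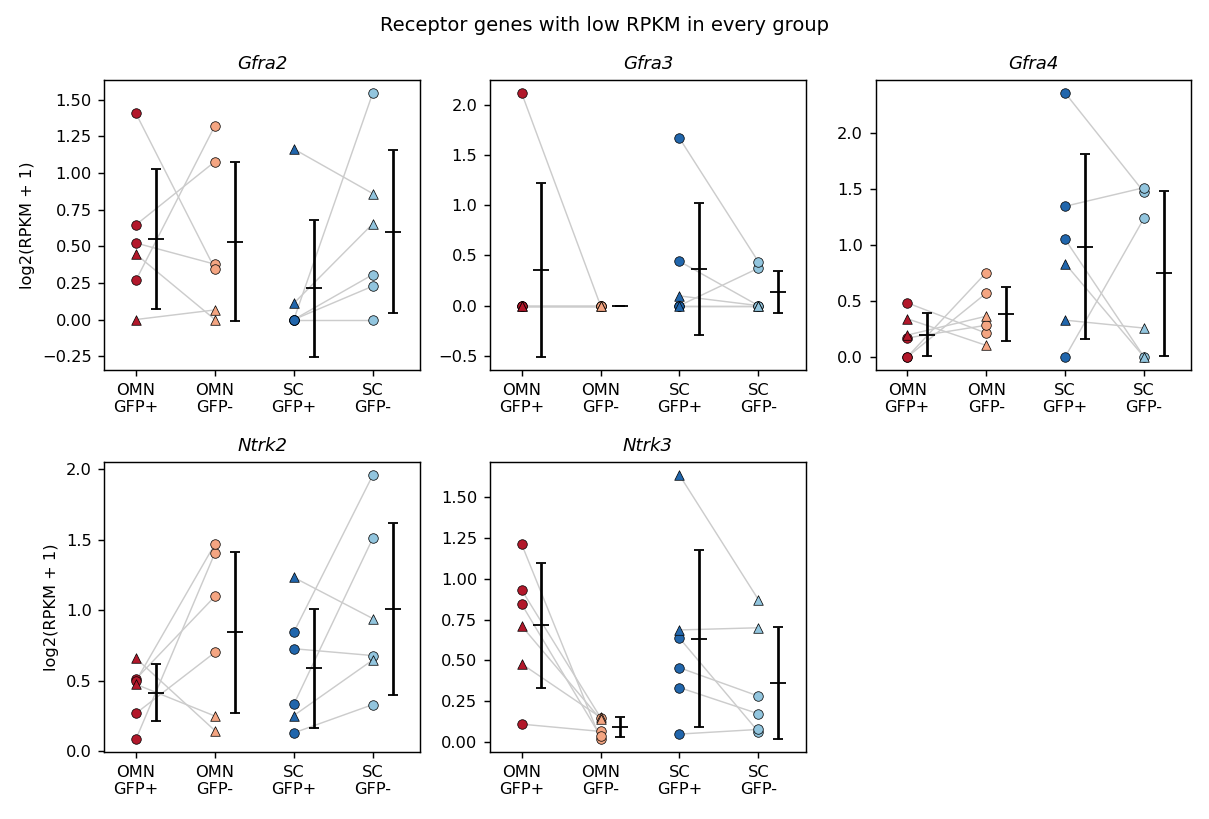
Levels of *Gfra2*, *Gfra3*, *Gfra4*, *Ntrk2* and *Ntrk3* as log2(RPKM + 1) in each sample (circles, replicates 1 to 4; triangles, replicates 5 and 6), with the mean and SD of 6 samples beside each group and gray lines joining the fractions of the same replicate number. *Ntrk3* is higher in GFP+ in all 6 oculomotor pairs, and *Gfra3* has 1 high sample in each GFP+ fraction.

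*Cntfr*, the CNTF-binding subunit, was at 0.468 to 10.7 RPKM in OMN GFP+ (median 2.48), 0.149 to 4.0 RPKM in OMN GFP- (0.986), 0.843 to 7.89 RPKM in SC GFP+ (3.85) and 0.101 to 7.19 RPKM in SC GFP- (3.05). All groups overlapped, and no comparison passed. The 95% interval was -1.54 to 0.92 between the GFP+ fractions, -0.58 to 1.82 between the OMN fractions and -0.8 to 1.59 between the SC fractions. Its spread followed the replicate sets instead of the groups, in that replicates 5 and 6 were below replicates 1 to 4 in each group. They were at 0.468 to 0.619 against 2.25 to 10.7 RPKM in OMN GFP+, 0.843 to 0.994 against 2.76 to 7.89 RPKM in SC GFP+, 0.149 to 0.637 against 0.843 to 4.0 RPKM in OMN GFP-, and 0.101 to 0.255 against 1.27 to 7.19 RPKM in SC GFP-. Replicates 5 and 6 were also the deeper libraries, and the part of depth or other features of these libraries was not tested.

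By mean RPKM the order in OMN GFP+ was *Ngfr* (19.4), *Gfra1* (11.5), *Ret* (10.8) and *Cntfr* (3.34), with the other members at 0.69 or less. In SC GFP+ it was *Ngfr* (18.0), *Ret* (4.87), *Cntfr* (3.93), *Gfra1* (2.99) and *Gfra4* (1.29), with the others at 0.657 or less. The ranges of neighbors in these orders overlapped throughout, and the orders depend on the lengths behind the RPKM. In the GFP- fractions *Cntfr* (1.46) stood first in OMN and *Ngfr* (5.31) in SC, and *Gfra1* was the seventh and the sixth of 9, at 0.285 and 0.748.

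Over the 24 samples *Gfra1* was most like *Galnt9* (Pearson r = 0.95), *Kcnk10* (0.95) and *Map6* (0.92) among 11950 genes with a mean of at least 1 RPKM. *Ret* was most like *Sh2b2* (0.9), *Ebf2* (0.89) and *Cep120* (0.89), and *Ngfr* was most like *Dusp8* (0.91) and *Tcaf1* (0.9). *Sh2b2* encodes an adaptor of receptor tyrosine kinases and *Ebf2* a neuronal transcription factor. The members correlated with each other at r = 0.75 (*Ret* with *Gfra1*), 0.77 (*Ret* with *Ngfr*) and 0.75 (*Gfra1* with *Ngfr*). Within single groups of 6 samples they ran from -0.54 (OMN GFP-) to 0.25 for *Ret* with *Gfra1*, from 0.31 (OMN GFP+) to 0.71 (SC GFP-) for *Ret* with *Ngfr*, and from 0.12 (OMN GFP+) to 0.79 (SC GFP+) for *Gfra1* with *Ngfr*. All are descriptions over samples that share the group differences given above, their libraries and their depth.

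Of 57 further genes of these pathways 56 were in the table. Between the OMN fractions 11 of the 56 were called in limma, 8 higher in GFP+ and 3 lower, against 6.15% of all genes (845 higher and 519 lower). With the pairs as a block 19 were called, while the share of all genes also went up, to 16.4%. No gene of the GDNF family ligands (0 of 4) or of the CNTF and LIF family ligands (0 of 6) was called, with 0 and 2 of them at an unadjusted p under 0.05; with the pairs as a block *Cntf* itself was lower in GFP+ (-1.37, adjusted p = 0.0185). Of the 4 neurotrophin ligands *Ntf5* (neurotrophin-4) was lower in GFP+ (-0.54, adjusted p = 0.00652), being listed at 0 in all OMN GFP+ samples and at most at 0.909 RPKM in OMN GFP-. Of 11 other receptors and co-receptors 2 were higher in GFP+. Among them, *Ncam1*, which can act as a GDNF co-receptor with GFRα1, was at 58.1 to 133 RPKM against 1.72 to 11.5 RPKM (4.04, SE 0.56, adjusted p = 5.46e-05).

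Of 25 adaptors and signal transducers 5 were higher in OMN GFP+ and none was lower in limma, where 6.15% of all genes were called in either direction. The largest differences were those of *Kidins220*, a substrate of protein kinase D that binds Trk receptors (2.09, adjusted p = 0.0131), *Shc2* (1.76, adjusted p = 0.0316), *Sh2b2* (1.66, adjusted p = 0.00527) and *Gab2* (1.3, adjusted p = 0.0355). *Kidins220* was at 15.8 to 36.9 RPKM in OMN GFP+ and 3.16 to 8.91 RPKM in OMN GFP-. Of 6 target genes of GDNF or neurotrophin signals 3 changed, in opposite directions. *Etv5* (-2.63, adjusted p = 0.0157) and *Etv1* (-1.41, adjusted p = 0.023), ETS factors that also respond to FGF signals, were lower in GFP+, and *Vgf*, a neuropeptide precursor, was higher (0.6, adjusted p = 0.0296) at no more than 1.32 RPKM.

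In the spinal cultures 1 of the 56 was called, near the 1.23% of all genes. It was *Lifr*, the LIF and CNTF signaling receptor, which was lower in GFP+ (-2.37, SE 0.42, limma adjusted p = 0.00303). It was at 0.583 to 4.4 RPKM in SC GFP+ and at 3.19 to 48.6 RPKM in SC GFP-, and lower in 6 of 6 pairs, and the call was kept without SC GFP- 2 (-2.43, adjusted p = 0.00523). With the pairs as a block 2 genes of the 56 were called, against 2.93% of all genes. Without spinal pair 4 there were 3 (*Lifr*, *Ncam1* and *Kidins220*, the last 2 higher in GFP+), against 2.9% of all genes. The interaction had 0 of 56 called in limma, *Lifr* being just outside (2.62, adjusted p = 0.0505). At an unadjusted p under 0.05 there were 11 of the 56, against 1582 of 22179 genes tested. With the pairs as a block 5 were called in the interaction, while the share of all genes went from 0.32% to 2.04%. Between the GFP+ fractions 0 of 56 were called in limma, against 0.603% of all genes. There were 13 at an unadjusted p under 0.05, against 1951 of 19240 genes tested. The adaptor *Shc1* came nearest, higher in OMN by 1.85 (SE 0.44, adjusted p = 0.0987), and passed without the library labelled SC GFP+ 4 (2.14, adjusted p = 0.0342). Between the GFP- fractions 0 of 56 were called (8 at an unadjusted p under 0.05 in limma, against 2500 of 22179 genes tested). Without spinal pair 4 there were 3 called (*Ncam1* and *Lifr* lower and *Etv5* higher in OMN), where the share of all genes went from 0.96% to 2.67%.

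**Figure D5:**
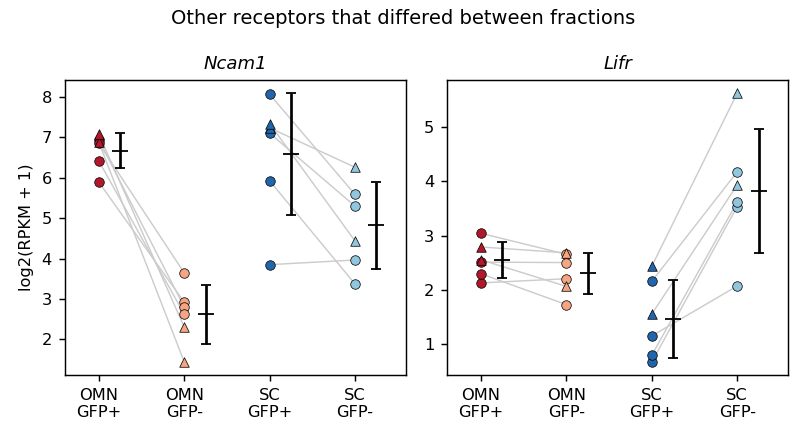
Levels of *Ncam1* and *Lifr* as log2(RPKM + 1) in each sample (circles, replicates 1 to 4; triangles, replicates 5 and 6), with the mean and SD of 6 samples beside each group and gray lines joining the fractions of the same replicate number. *Ncam1* does not overlap between the OMN fractions, and *Lifr* is lower in GFP+ in all 6 spinal pairs.

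Other cell types moved with these differences. Between the OMN fractions 7 of 9 motor neuron markers were higher in GFP+ in limma, with summed levels of 377 to 816 RPKM against 10.5 to 43.3 RPKM. The 7 include *Isl1*, on whose reporter the cells were sorted, at 141 to 369 RPKM in OMN GFP+, so that part was set by the sort. *Chat* was at 0 in all OMN GFP- samples. Of 7 sensory neuron markers, a cell type that also expresses Islet1, 3 were higher in GFP+, among them *Pou4f1* and *P2rx3*, with sums of 31.5 to 158 RPKM against 1.0 to 3.09 RPKM, and none was at 0 throughout a group. *Pou4f1* was at 4.94 to 23.7 RPKM in OMN GFP+, *Runx1* at no more than 2.99 RPKM and *Runx3* at no more than 0.848 RPKM. Of 4 autonomic neuron markers 1 was higher in GFP+ (*Dbh*), with *Hand2* at 0 in all OMN GFP+ samples and sums of 2.1 to 10.3 RPKM against 1.0 to 4.3 RPKM. *Gata3* of that list went the other way without being called (means 0.608 and 1.69 RPKM). *Sox10*, the defining gene of neural crest and peripheral glia, was at 0 in all 12 oculomotor samples, and 0 of 4 genes of that list were called in limma (1 at an unadjusted p under 0.05). Lower in OMN GFP+ were 2 of 3 pluripotency genes (0.315 to 6.57 RPKM against 49.2 to 203 RPKM), 2 of 4 cell cycle genes (18.1 to 153 RPKM against 152 to 229 RPKM) and 1 of 6 neural progenitor genes (29.6 to 197 RPKM against 89.3 to 220 RPKM). The part of these cells in the *Gfra1*, *Ret* and *Ngfr* differences was not tested.

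Between the SC fractions 4 of 9 motor neuron markers were higher in GFP+ in limma (summed 65.1 to 351 RPKM against 10.1 to 94.2 RPKM), and 3 of 4 endoderm genes were lower (0 to 1.74 RPKM against 3.89 to 52.7 RPKM). The 4 include *Mnx1*, on whose reporter these cells were sorted. The 65.1 and 1.74 RPKM were those of the library labelled SC GFP+ 4, and the 94.2 and 3.89 RPKM those of the library labelled SC GFP- 4. No sensory neuron marker was called between the SC fractions (0 of 7 in limma, 1 at an unadjusted p under 0.05), although the sums were 4.22 to 58.1 RPKM in SC GFP+ and 1.91 to 15.9 RPKM in SC GFP-. Of 4 autonomic neuron markers 1 was higher in SC GFP+ in limma, with sums of 5.45 to 16.0 RPKM against 0.668 to 30.9 RPKM in SC GFP-. *Dbh* was also called in the interaction. Between the GFP+ fractions *Phox2a*, which the OMN line also carries as a transgene, was among 2 of 9 motor neuron markers that were higher in OMN. *Mnx1*, the gene of the spinal reporter, was lower, while 0 of 7 sensory neuron markers were called in limma (3 at an unadjusted p under 0.05). The motor neuron sums were 377 to 816 RPKM in OMN and 65.1 to 351 RPKM in SC. Progenitor sums were 29.6 to 197 (median 42.7) and 93.0 to 1370 RPKM (median 235), and pluripotency sums 0.315 to 6.57 (median 2.27) and 0.257 to 238 RPKM (median 26.0). The 238 RPKM and the 65.1 RPKM of the motor neuron sums were those of the library labelled SC GFP+ 4. *Fabp7* alone reached 1310 RPKM in an SC GFP+ sample. Of the progenitor and pluripotency genes 0 of 6 and 0 of 3 were called in limma (3 and 2 at an unadjusted p under 0.05). Interneuron markers were called in no comparison (0 of 6, and 0 at an unadjusted p under 0.05). Of the 4 astrocyte and oligodendrocyte genes only *Mbp* was called between the OMN fractions, higher in GFP+ (means 3.69 and 0.811 RPKM). *Pdgfra* went the other way there without being called (0.0935 and 0.796 RPKM). *Gfap* and *Aqp4* reached at most 0.7 and 0.251 RPKM in any group, both in SC GFP-. *Pdgfra* was higher in SC GFP- than in each of SC GFP+ and OMN GFP-. Between the GFP- fractions 3 of 4 endoderm genes were also higher in SC, against 0.96% of all genes called.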

How the data were processed

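The authors mapped SMART-seq2 reads to mm10/GRCm38 with HISAT2 2.0.3 and deposited a table of RPKM (computed with rpkmforgenes), which holds no read counts. The gene annotation behind it is not given in the sources used here. All 24 samples were grouped by the labels. Members and gene lists were chosen with earlier results of these data known. Values were compared as log2(RPKM + 1) with limma 3.58.1 in R 4.3.3 (eBayes with trend, Benjamini-Hochberg over all genes, threshold 0.05), keeping genes with a value over 0 RPKM in 2 or more fitted samples. The GFP-positive fractions were compared in a fit of their 12 samples, the rest in a fit of all 24. Intervals are 95% intervals of the limma fit. Depth was read from the RPKM steps: 95.9% to 97.9% of values under 10 reads lay within 2.0% of whole reads. The reads are amplified molecules without identifiers, so read counts and 3-read limits cover counting error only. Fractions of the same culture and number were taken as pairs, since their deviations from the group means correlated in 6 of 6 pairs (0.38 to 0.73 in oculomotor, 0.42 to 0.66 in spinal cultures, 11950 genes); across cultures only 4 of 6 did. The block for pairs was an alternative, as were a pseudocount of 0.1 RPKM, other filters (none, or a mean of at least 1 RPKM), median-ratio scaling, sample weights, other sets of fitted samples and each sample left out; leaving out spinal pair 4 was chosen after seeing the data. Count-based tests were not run because the table holds no counts. The fits were tested on simulated data. Named were all 9 members, at most the 4 called genes with the largest change per list and comparison, the genes nearest to the threshold and those called only under an alternative (chosen after their values were seen), and the 3 genes most correlated with each member whose mean reached 5 RPKM in a group. Marker lists covered motor, sensory and autonomic neurons, interneurons, neural crest, progenitors, cycling cells, glia, pluripotent cells and endoderm. A few genes that the rule would name are not reported here.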

Additional observations from a re-analysis of the deposited data

Results flagged for a closer look

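In 4 of 35 groups of values tested (9 members in 4 groups, without *Gfra3* in OMN GFP-, which was 0 throughout) 1 sample stood apart from the other 5 of its group by Dixon's test on the log2(RPKM + 1) scale. For normally distributed values that test marks about 1 in 20 groups by chance. *Gfra3* was at 3.35 RPKM in OMN GFP+ 1 and at 2.18 RPKM in the library labelled SC GFP+ 4. *Gfra2* was at 1.24 RPKM in SC GFP+ 6, and *Ngfr* was at 16.8 RPKM in SC GFP- 1. *Gfra3* was listed at 0 in 5 of 6 OMN GFP+ samples and 3 of 6 SC GFP+ samples, and *Gfra2* in 4 of 6 SC GFP+ samples. The chance rate given above does not hold for groups with so many values at 0. The fraction difference of *Gfra1* differed between the cultures, by 2.19 on the log2 scale in the interaction test of limma (adjusted p = 0.0315, from 0.00981 to 0.425 over the alternatives other than leaving out single samples).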

How the results depend on the processing

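Of the 45 pairs of a member and a comparison, 5 were called, and no called difference changed sign under any alternative; 38 were called under no setting. Between the GFP+ fractions the *Gfra1* call was lost, giving 0 members, without the filter on low values (limma adjusted p = 0.056) and with replicate number as a block (0.135). Deviations of the GFP+ samples of the same number correlated across cultures in 4 of 6 numbers (-0.17 to 0.71). The call was also lost in replicates 1 to 4 (0.277) or 5 and 6 (0.243) alone and without spinal pair 4, and single samples left out gave 0 to 1. The interaction gave 0 members with a pseudocount of 0.1 RPKM (adjusted p = 0.0793) and in replicates 1 to 4 (0.425) or 5 and 6 (0.295) alone, and 0 to 1 with single samples left out. Between the SC fractions the block for pairs gave 1 member, and single samples left out 0 to 1. Pathway genes called between the GFP+ fractions (0) became 1 with a mean of at least 1 RPKM, sample weights, all 24 samples fitted, the replicate block, the term for replicates 5 and 6 or no spinal pair 4 (0 to 1 with single samples left out). Between the GFP- fractions (0) they became 1 with a pseudocount of 0.1 RPKM, a mean of at least 1 RPKM, median-ratio scaling or replicates 5 and 6 alone, 2 with the replicate block or the term for replicates 5 and 6, 3 without spinal pair 4 and 4 with sample weights (0 to 2 with single samples left out). Between the OMN fractions (11) they became 19 with sample weights or the block for pairs and 4 in either replicate set alone, while the share of all genes called went from 6.15% to 17.1% and 16.4%, and to 2.27% (replicates 1 to 4) and 4.74% (replicates 5 and 6), in these fits (7 to 12 with single samples left out). Between the SC fractions (1) they became 0 in a fit of the 2 groups or in either replicate set alone, 2 with the block and 3 without spinal pair 4 (1 to 3 with single samples left out). In the interaction (0) they became 1 with a pseudocount of 0.1 RPKM, a mean of at least 1 RPKM, sample weights, the term for replicates 5 and 6 or no spinal pair 4, and 5 with the block (0 to 1 with single samples left out). The causes of these shifts were not tested, except that replicate sets alone hold fewer samples. *Gfra2*, *Gfra3* and *Gfra4* rest on at most 33 reads per sample, so small differences in them were not detectable at this depth.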
